A study of Homo sapiens with 13 samples.

Results

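The regions described here are the places where NRF2 was found away from tRNA genes. They were chosen by the NRF2 peaks themselves: the peaks of both NRF2 libraries were merged where they shared at least 1 bp on chromosomes 1 to 22 and X, and a merged site was kept when it lay farther than 1 kb from each of 443 tRNA genes in RefSeq. Of 2034 merged NRF2 sites, 1705 met this rule. A peak of each replicate was present at 178 of them, and 1527 rested on 1 replicate, 1032 on replicate 1 and 495 on replicate 2. The other 329 sites lay within 1 kb of a tRNA gene, and 205 of those were found in both replicates.

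In CUT&RUN a nuclease is held to chromatin by an antibody and cuts out the DNA around it, and peaks of the released reads mark where the antibody's target sits. The cells were PANC1, a long-established line from a human pancreatic ductal carcinoma, in a form that stably expresses BRG1, and all 12 libraries used here share that genotype. PANC1 without the added BRG1 was not among the samples, nor is it stated whether the line is 1 clone, so nothing below bears on what BRG1 changes. The targets were NRF2, BRG1, SMARCC1, H3K27ac, H3K4me1 and H3K4me3, with 2 replicates each of mildly crosslinked cells. The labels do not say that replicates came from separate cultures, and the IgG library was not used here.

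NRF2, encoded by NFE2L2, is a basic leucine zipper factor that the adaptor KEAP1 normally sends for degradation. Under oxidative or electrophilic stress, or when KEAP1 fails, it enters the nucleus, pairs with a small MAF protein and binds antioxidant response elements near genes of glutathione synthesis, NADPH supply, haem breakdown and drug detoxification. That element resembles the site of the AP-1 factors, and the 2 can overlap in the same letters. BRG1, encoded by SMARCA4, is an ATPase of the BAF chromatin remodelling complexes, and SMARCC1 is a scaffold subunit of them. H3K27ac marks active promoters and enhancers, H3K4me1 marks enhancers and H3K4me3 marks promoters. RNA polymerase III reads tRNA genes and a few other short RNA genes, among them the Y RNAs and the vault RNAs.

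The sequences below are shown because they are promoter stretches inside NRF2 sites and let the antioxidant response element be read directly. Each runs 5′ to 3′ on the gene's strand, covers bases before the gene's start that lie inside the site, and comes from RefSeq on GRCh38.p14. Capitals mark matches, on either strand, to the antioxidant response element core TGACNNNGC or to the AP-1 site TGANTCA. The VTRNA1-1 stretch comes from the promoter window listed under the long noncoding RNA LOC105378198. Its site, within 1 kb of that vault RNA gene, had the second best rank of all. LOC105378929 and MEF2C carry matches at sites found in both replicates, SRPX2 and GSTA4 carry one at a site of replicate 1 alone, and FNTB and KLHL41 show stretches at sites of both replicates without a match.
VTRNA1-1 (chr5:140711026-140711275, plus strand): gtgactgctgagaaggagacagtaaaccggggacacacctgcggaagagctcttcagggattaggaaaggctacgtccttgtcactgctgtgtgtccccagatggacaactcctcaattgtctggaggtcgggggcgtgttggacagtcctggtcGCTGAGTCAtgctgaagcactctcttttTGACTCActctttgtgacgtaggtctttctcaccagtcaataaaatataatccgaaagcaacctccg
LOC105378929 (chr1:117821802-117822051, minus strand): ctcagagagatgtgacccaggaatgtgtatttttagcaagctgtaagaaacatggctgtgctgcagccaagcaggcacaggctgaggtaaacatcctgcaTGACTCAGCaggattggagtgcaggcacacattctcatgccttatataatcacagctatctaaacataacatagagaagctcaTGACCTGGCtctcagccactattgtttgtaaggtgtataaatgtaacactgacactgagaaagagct
MEF2C (chr5:88785569-88785761, minus strand): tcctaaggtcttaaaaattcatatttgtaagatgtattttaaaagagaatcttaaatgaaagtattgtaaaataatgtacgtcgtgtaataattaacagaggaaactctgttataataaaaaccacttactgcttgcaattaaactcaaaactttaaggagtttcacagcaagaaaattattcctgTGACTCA
SRPX2 (chrX:100643949-100644198, plus strand): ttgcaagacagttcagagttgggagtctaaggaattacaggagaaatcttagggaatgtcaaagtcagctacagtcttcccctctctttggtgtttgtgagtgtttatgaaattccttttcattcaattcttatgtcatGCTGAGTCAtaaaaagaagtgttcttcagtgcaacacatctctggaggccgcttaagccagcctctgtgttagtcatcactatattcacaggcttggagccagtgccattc
GSTA4 (chr6:52995285-52995534, minus strand): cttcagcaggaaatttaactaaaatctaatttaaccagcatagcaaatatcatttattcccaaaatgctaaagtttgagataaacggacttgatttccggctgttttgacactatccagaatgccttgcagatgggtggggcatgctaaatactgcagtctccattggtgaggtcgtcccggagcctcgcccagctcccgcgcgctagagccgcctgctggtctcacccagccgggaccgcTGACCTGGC
FNTB (chr14:64986749-64986894, plus strand): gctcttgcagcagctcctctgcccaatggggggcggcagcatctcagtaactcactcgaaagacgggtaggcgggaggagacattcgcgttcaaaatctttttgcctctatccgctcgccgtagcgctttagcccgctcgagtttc
KLHL41 (chr2:169509452-169509576, plus strand): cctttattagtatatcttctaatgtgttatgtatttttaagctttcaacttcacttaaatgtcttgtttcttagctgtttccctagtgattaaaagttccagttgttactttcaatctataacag

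The VTRNA1-1 stretch held 1 match to the antioxidant response element and 2 to the AP-1 site. The LOC105378929 stretch, from before a long noncoding RNA, held 2 and 1. In VTRNA1-1, LOC105378929 and SRPX2 a single run, TGACTCAGC on 1 strand, satisfies both motifs. MEF2C, a transcription factor gene, held 1 AP-1 match, and GSTA4, a glutathione transferase gene, held 1 antioxidant response element match that ends at the gene's start. The GSTA4 site also lies within 1 kb of RN7SK, a polymerase III RNA gene. Few sites reach a promoter window, defined as 250 bases before to 50 after a gene's start: 12 of 178 sites found in both replicates, or 6.74%, and 93 of 1527 found in 1 replicate, or 6.09%. The sequence of the other sites was not used here.

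Over the 14 promoter windows that met a site found in both replicates, 5 held TGACNNNGC, or 35.7% (95% exact binomial interval 12.8 to 64.9). Over the 113 windows that met a site of 1 replicate, 24 held it, or 21.2% (14.1 to 29.9). The share of all 34961 windows was 13.4%, and that of 45 windows meeting a site near a tRNA gene was 11.1% (3.71 to 24.1). The AP-1 site TGANTCA was in 3 of the 14 windows, or 21.4% (4.66 to 50.8), in 17 of the 113, or 15% (9.01 to 23), and in 7.68% of all windows. The run TGACTCAGC, searched after the matches had been seen, was in 2 of the 14, in 4 of the 113 and in 0.563% of all windows. The polymerase III B box GTTCGANNC was in 0 of the 14 windows and in 2 of the 113, against 11 of 45, or 24.4% (12.9 to 39.5), near tRNA genes and 0.829% of all windows. The TEAD site GGAATG, at 14.3% of the 14 and 10.6% of the 113, lay near its share of 14% in all windows. The NF-Y site CCAAT was in 50%, 40.7% and 34.6% of those 3 sets. Both strands were searched, a match in a window need not lie inside the site, and with 14 windows the intervals are wide. Of the 5 windows with TGACNNNGC, the stretches of VTRNA1-1 and LOC105378929 held the match. Those of SLC30A1 and TMEM248 did not, and HCG15 had no stretch to search. The 14 windows met 12 sites, so some share a site, which the intervals do not allow for.

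The 2 NRF2 libraries held 1538 and 919 peaks in all, and those of the other targets between 572 and 37283. The deposited lists give no read counts, so the depth behind each library is unknown and too little sequencing is not distinguishable from missing binding. Every library was called down to a −log10 p of about 2, its lowest value lying between 2.01 and 2.04. Only 394 and 182 NRF2 peaks reached a −log10 q of 1.3. H3K4me3 and H3K27ac both lay at the ends of KRT8, KRT18, KRT19, VIM and CD44, which are epithelial and mesenchymal genes, and at neither end of KRT7 or of the acinar, endocrine, blood and liver markers looked up.

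Some sites stood apart from the rest. Inside UBA1, the gene of the ubiquitin-activating enzyme on chrX:47190847-47215128, replicate 1 had 9 NRF2 peaks with −log10 p between 551 and 1330. Away from tRNA genes, the next highest −log10 p in that library was 97.4. Replicate 2 had 4 peaks there with folds of 1.11 to 1.53, the lowest of which was the lowest fold in that library. BRG1 replicate 1 also had 11 peaks inside UBA1, with −log10 p up to 210 against 17.2 elsewhere, while BRG1 replicate 2, both SMARCC1 libraries and both H3K4me1 libraries had none. These peaks make 9 of the 1705 sites and 3 of the 178, and the shares and differences over the 5 targets were also computed without them; what made them was not tested. A pair of further sites had far higher −log10 p than their folds would place them among other sites. The first, at chr19:39401579-39402992 and 938 bp from MED29, had 97.4 and 53.1, and the second, at chr3:93470318-93470793 and 402258 bp from PROS1, had 45.1 and 48.4.

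**Figure D1:**
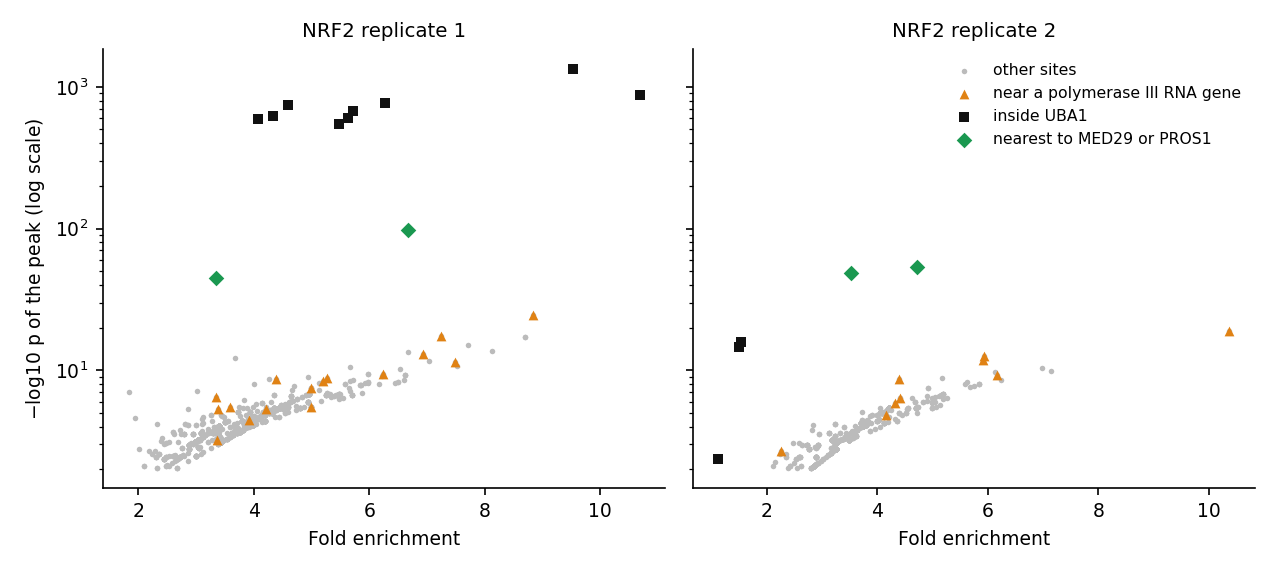
The −log10 p of each NRF2 peak away from tRNA genes (log scale) against its fold enrichment, in replicate 1 on the left and replicate 2 on the right. The 9 UBA1 sites (squares) reach 1330 in replicate 1, the sites nearest to MED29 and PROS1 (diamonds) stand above the band in both libraries, and sites near polymerase III RNA genes (triangles) lie within the band, from its low end (RMRP at 3.34 and 2.26) to its top (RNY4 at 10.4 in replicate 2).

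Fold enrichment was low throughout and higher at sites seen in both replicates. These values chose the members and are given as a description. At the 178 sites found in both replicates, fold enrichment ran from 2.32 to 8.83 in replicate 1 with a median of 3.99, and from 1.12 to 10.4 in replicate 2 with a median of 3.7. Sites of 1 replicate had medians of 3.54 in replicate 1 and 3.41 in replicate 2. The 205 sites found in both replicates near tRNA genes had medians of 6.29 and 4.72. Sites of both replicates were also wider, with a median of 367 bp against 214 bp, a direction that the merging of overlapping peaks itself favours. The median −log10 q at the 178 sites was 0.276 in replicate 1 and 0 in replicate 2, so most of them would not pass an adjusted threshold in both libraries.

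Peaks in the highest bin of fold were found again most often. Of the 1213 peaks of replicate 1 away from tRNA genes, 14.9% were met by a peak of replicate 2, with 8.22%, 8.91%, 16.5% and 26.1% from the lowest to the highest of 4 equal bins of fold. Of the 677 peaks of replicate 2, 26.9% were met, with 17.6%, 25.4%, 21.9% and 42.6% over the same bins. Across the 178 sites the folds of both replicates had a Spearman correlation of 0.357, or 0.391 without the UBA1 sites, given here as a description over sites that share their libraries. Across the 205 sites near tRNA genes it was 0.686.

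**Figure D2:**
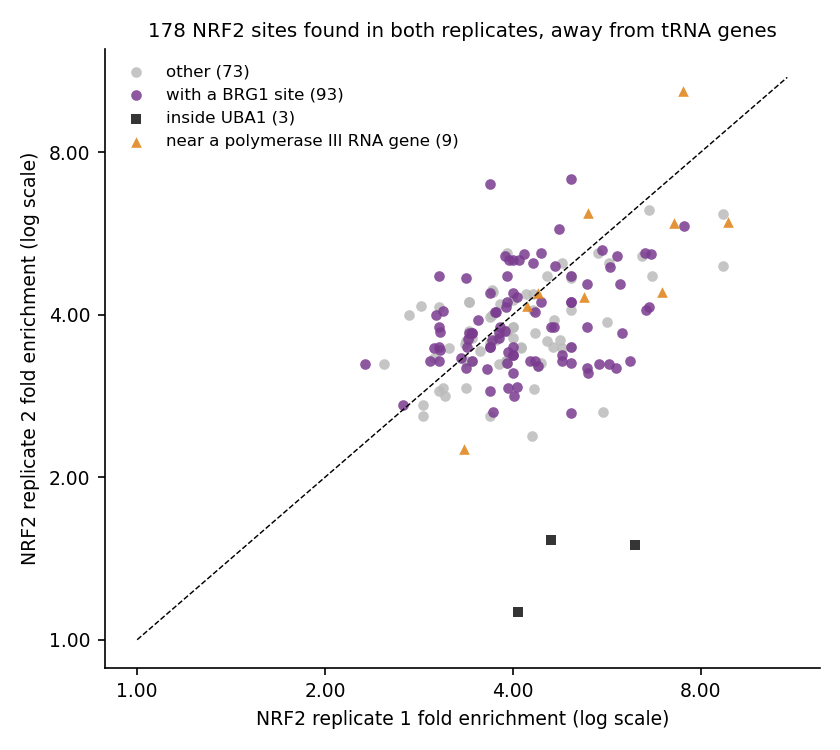
Fold enrichment in NRF2 replicate 2 against replicate 1 (both log scales) for the 178 sites found in both, by what lies there, with the line of equal fold dashed. Sites with BRG1 (93) spread through the range, the 3 UBA1 sites lie far below the line, and RNY4, at 7.49 and 10.4, is the highest point.

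Marks of active chromatin lay at many of the 178 sites, and promoter marks at few. H3K27ac was met by 72, or 40.4% (95% exact binomial interval 33.2 to 48), where a mark's region counts only when both of its replicates hold a peak. H3K4me1 was met by 65, or 36.5% (29.4 to 44), and H3K4me3 by 19, or 10.7% (6.55 to 16.2). No mark was met by 76, or 42.7% (35.3 to 50.3), and by 41.7% without the UBA1 sites. H3K27ac with H3K4me1, the pair typical of active enhancers, was at 42 sites, H3K4me1 alone at 22 and H3K27ac alone at 19. H3K27ac with H3K4me3, the pair typical of active promoters, was at 10, H3K4me3 alone at 8 and all 3 marks at 1.

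Sites found in both replicates met H3K27ac more often than sites of 1 replicate did. The share of the latter was 22% (336 of 1527), 18.4 percentage points lower, with an adjusted p of 5.7e-07 by Fisher's exact test, two-sided, with Benjamini-Hochberg adjustment over 5 targets. H3K4me1 was met by 26.5% of them, 10.1 points lower with an adjusted p of 0.0073. H3K4me3 was met by 8.51%, a difference of 2.16 points with an adjusted p of 0.327. The H3K4me1 difference missed the threshold when each site was reduced to its summit (6.59 points, adjusted p of 0.0784) and within 4 strata of NRF2 fold (7.14 points, adjusted p of 0.089). Sites are not independent replicates, and none of the p-values here or below measures the spread between replicates.

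The 2 NRF2 libraries differed in the marks under their unshared peaks. Sites of replicate 1 alone met H3K27ac in 26.6% (24 to 29.5) and sites of replicate 2 alone in 12.3% (9.56 to 15.5), and their exact intervals do not overlap. H3K4me3 was met by 10.8% (8.93 to 12.8) and 3.84% (2.33 to 5.93), while H3K4me1 was met by 26.2% and 27.1%. Over all peaks away from tRNA genes, the library shares averaged 24.1% ± 6.44 (SD, n = 2) in H3K27ac, 28.5% ± 1.26 (SD, n = 2) in H3K4me1 and 8.28% ± 3.56 (SD, n = 2) in H3K4me3.

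BRG1 lay at more of the 178 sites, for the lists as deposited, than any histone mark did. Among sites of 1 replicate H3K4me1, at 26.5%, was met more often than BRG1. Among sites of both replicates at a −log10 q of at least 1.3, H3K4me3 (36.4%, 8 of 22) was met more often than BRG1 (31.8%, 7 of 22). The order was the opposite without UBA1 sites and sites near other polymerase III genes or tRNA pseudogenes. BRG1 was then at 7 of 14 and H3K4me3 at 4 of 14. Of the 178 sites found in both replicates, 93, or 52.2% (44.6 to 59.8), met a BRG1 site present in both BRG1 replicates, against 365 of 1527, or 23.9% (21.8 to 26.1), of sites of 1 replicate. The difference was 28.3 points, with an adjusted p of 1.2e-13 by Fisher's exact test. It was 29.1 points without the UBA1 sites and 23.3 points within 4 strata of NRF2 fold, adjusted p of 1.9e-08. Over all peaks away from tRNA genes, 29% ± 0.49 (SD, n = 2) of each library met BRG1. By bin of NRF2 fold, the share ran from 22.7% in the lowest to 39.6% in the highest in replicate 1, and was 25.9%, 29.6%, 18.9% and 40.2% from the lowest to the highest in replicate 2.

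**Figure D3:**
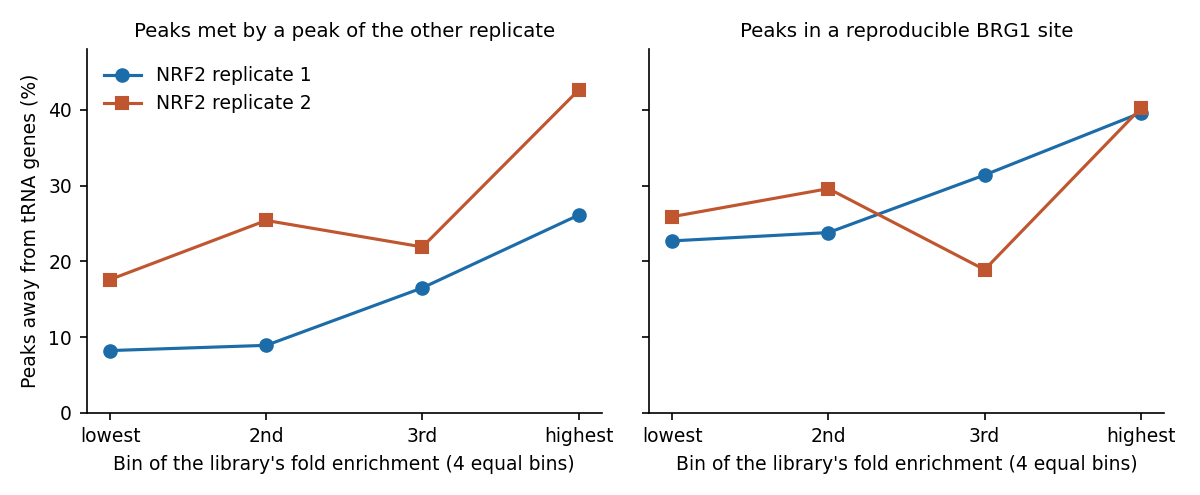
Share of each NRF2 library's peaks away from tRNA genes that were met by the other replicate (left) and that met a BRG1 site (right), by bin of fold enrichment (4 equal bins). The highest bin has the highest share in both panels and both libraries, reaching 42.6% for replicate 2 on the left and 40.2% on the right, and the third bin of replicate 2 is the lowest of its 4 on the right, at 18.9%.

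BRG1 was not restricted to marked chromatin. Of the 76 sites without a mark, 40 had BRG1, or 52.6% (54.8% without the UBA1 sites), and of the 42 with H3K27ac and H3K4me1, 27 had it, or 64.3%. None of the 8 sites with H3K4me3 alone had BRG1. Among sites of 1 replicate, 171 of 885 without a mark had BRG1, or 19.3%, and 57 of 131 with H3K27ac and H3K4me1, or 43.5%. The summits of NRF2 and BRG1 were a median of 57 bp apart at the 93 shared sites, and 67.7% lay within 100 bp. The summits of H3K27ac and H3K4me1 were farther away, at medians of 153 and 157 bp, and that of H3K4me3 at 382 bp. The median NRF2 fold was the same with and without BRG1, 3.99 in replicate 1 and 3.7 in replicate 2.

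**Figure D4:**
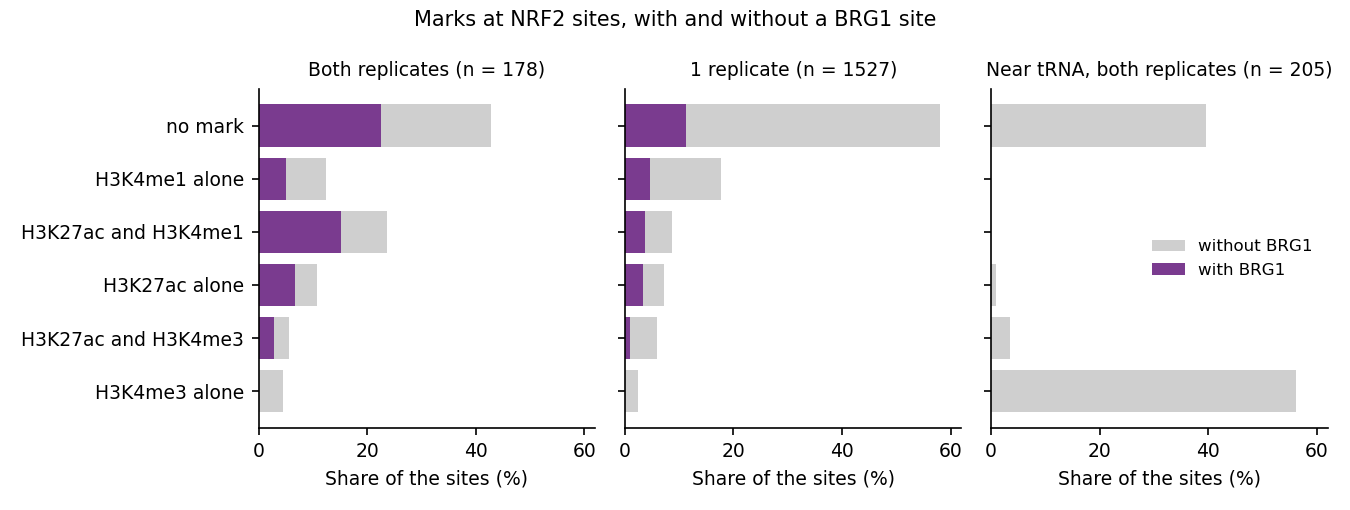
Share of sites (%) in each class of histone mark, for sites away from tRNA genes found in both replicates (left) or in 1 (middle), and for sites near tRNA genes (right), with the part that also has BRG1 in purple. BRG1 takes 40 of the 76 unmarked sites on the left and none of the bars on the right; the class with all 3 marks, 1 site on the left and 3 in the middle, is not drawn.

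Seen from BRG1, 94 of its sites, or 4.61%, held an NRF2 site of both replicates. Their median BRG1 fold, averaged over both BRG1 libraries, was 4.55, against 3.95 at the 355 BRG1 sites with an NRF2 site of 1 replicate only and 3.67 at the 1591 others. H3K27ac was met by 51.1%, 34.6% and 29.9% of those 3 groups.

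SMARCC1 was found at few sites, in libraries of 600 and 572 peaks, of which 0 reached a −log10 q of 1.3. It met 8 of the 178 sites, or 4.49% (1.96 to 8.66), and 15 of the 1527, or 0.982% (0.551 to 1.62), a difference of 3.51 points with an adjusted p of 0.00249 by Fisher's exact test. The difference missed the threshold when NRF2 peaks were held to a −log10 p of at least 5 (6.14 points, adjusted p of 0.111) or a −log10 q of at least 1.3 (1.19 points, adjusted p of 0.568). All 8 sites also had BRG1 and H3K27ac. Their nearest coding genes were ZFAND1, MTURN, ATIC, LPIN3, IQGAP1, SIPA1L3, KLHL41 and CMIP. At ZFAND1, a zinc finger protein gene, NRF2 folds were 6.5 and 5.19, BRG1 folds 4.22 and 6.81 and SMARCC1 folds 3.79 and 3.42. The IQGAP1 site, chr15:90400844-90401203 inside that scaffold protein's gene, had NRF2 folds of 3.39 and 3.6, BRG1 folds of 5.13 and 6.12 and H3K27ac folds of 7.25 and 8.21. The KLHL41 site, whose promoter stretch is printed above, had the NRF2 folds 2.98 and 3.47. IQGAP1, KLHL41, SIPA1L3 and CMIP had NRF2 folds under the medians of the 178 in both libraries. Among the 15 sites of 1 replicate, those nearest to ABCC1, PDGFRB, IL12A and PLBD2 had replicate 1 folds of 3.63, 4.47, 5.71 and 4.95.

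Away from tRNA genes NRF2 sat in a different setting from that beside them. Among sites found in both replicates, BRG1 was at 93 of 178 away from tRNA genes and at 0 of 205 near them, which allows a share of up to 1.46%, a difference of 52.2 points with an adjusted p of 1.3e-38 by Fisher's exact test. H3K4me1 was also at 0 of the 205, 36.5 points lower with an adjusted p of 2.8e-25. H3K27ac was at 4.39%, 36.1 points lower with an adjusted p of 6.2e-19. H3K4me3 ran the other way: it was at 59.5% of sites near tRNA genes, and the share away from them differed by -48.8 points with an adjusted p of 3.2e-24. SMARCC1, at 0 of 205, differed by 4.49 points with an adjusted p of 0.002. The SMARCC1 difference missed the threshold without NRF2 replicate 1, at 1.62 points and an adjusted p of 0.0766. Without that replicate the H3K27ac and H3K4me3 shares away from tRNA genes were 19.5% and 5.76%, and the BRG1 share was 28.7%, since every peak of the remaining replicate then counts as a site; without NRF2 replicate 2 the BRG1 share was 29.3%.

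**Figure D5:**
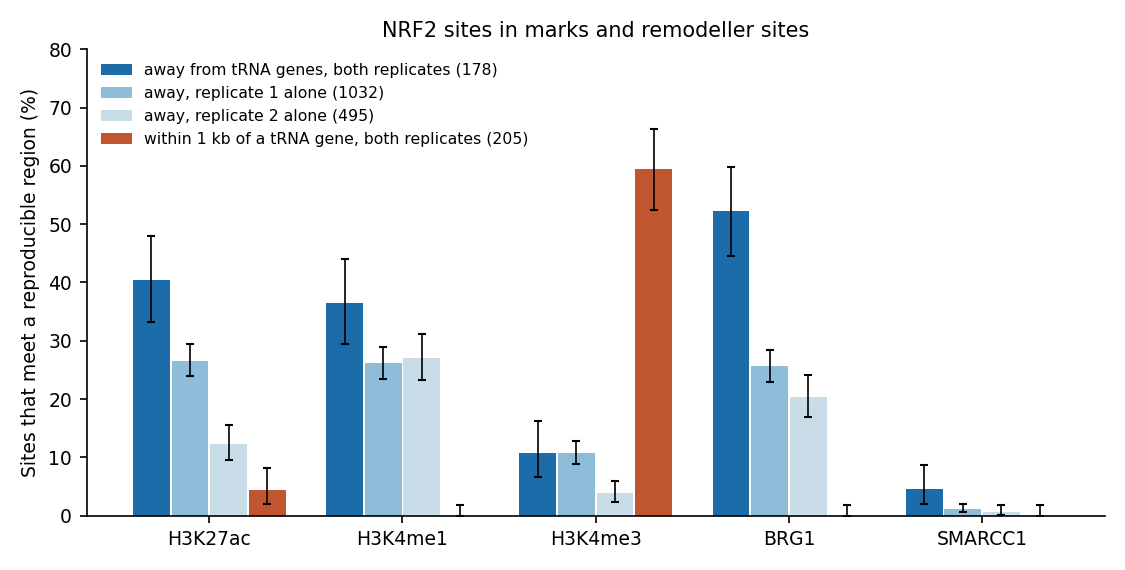
Share of NRF2 sites (%) that met a reproducible region of each target, with 95% exact binomial intervals as bars, for sites away from tRNA genes in both replicates or in either alone, and for sites near tRNA genes. BRG1 stands at 52.2% in the first group and at 0 near tRNA genes, and H3K4me3 shows the opposite order, 10.7% against 59.5%.

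The 1 kb limit cut through a thinly filled range. Just inside it lay a site 963 bp from TRQ-TTG3-1, with folds of 2.5 and 2.83, and just outside it one 1002 bp from TRX-CAT1-2, with a fold of 2.81 in replicate 1 alone and H3K4me3. Of the 1705 sites, 17 lay between 1 and 5 kb from a tRNA gene, 3 of them found in both replicates.

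The strongest sites were in part beside other polymerase III genes. Of the 178 sites, 9 lay within 1 kb of such an RNA gene, or 5.06%, and of the 1527 sites, 7, or 0.458%. The 4 Y RNA genes, which encode small RNAs bound by the Ro protein, each had a site in both replicates. RNY4 had folds of 7.49 and 10.4, the best mean rank of all, RNY1 had 6.94 and 4.41, RNY5 had 5.28 and 6.16 and RNY3 had 5.21 and 4.32. VTRNA1-1, a vault RNA gene, had folds of 8.83 and 5.93 at chr5:140710720-140711446. VTRNA1-2 had a pair of sites, at 7.24 and 5.92 and at 4.39 and 4.38, and VTRNA1-3 had 6.24 in replicate 1 alone. RMRP, the RNA of a ribosomal RNA processing enzyme, had 3.34 and 2.26, and RNU6ATAC, a spliceosomal RNA, had 4.21 and 4.15. Sites near RN7SK, RN7SL2, RNU6-2, RNU6-7 and RNU6-9 were in replicate 1 alone. None of these 16 sites had BRG1 or H3K4me1, and H3K4me3 was at 5 of the 9 and 6 of the 7. No site lay near the 17 5S RNA genes in RefSeq, RPPH1 or BCYRN1. Another 2 of the 178 sites, or 1.12%, and 2 of the 1527, or 0.131%, lay within 1 kb of a RefSeq tRNA pseudogene. Where polymerase III sites are left out below, these were left out too.

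The 10 sites of best mean rank over both libraries also held 7 away from polymerase III RNA genes. A site at chr6:27777414-27777812, with folds of 8.69 and 6.13, lay 29667 bp from the histone gene H2BC13 and 13544 bp from the nearest tRNA gene, and a site at chr6:28695730-28696539, with 8.69 and 4.92, lay 79528 bp from SCAND3 and 14050 bp from a tRNA gene. Both had H3K4me3 alone and no BRG1, as most sites near tRNA genes do. ZFPM2, a cofactor of GATA factors, was the nearest coding gene, at 206763 bp, of a site with 7.52 and 5.84, no mark and BRG1 folds of 5.2 and 6.66. PAPSS2, which makes the sulfate donor used in conjugation, held a site with 6.6 and 6.25, no mark and no BRG1, at chr10:87705240-87705665. LAMA3, a laminin chain of epithelial basement membrane, held an unmarked site with 6.67 and 5.17 and BRG1 folds of 4.36 and 3.85. ZFAND1 came next, and the tenth site, 342392 bp from ACTRT1, had 6.44 and 5.15 with H3K27ac and H3K4me1.

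Sites of 1 library with the highest folds were no weaker in that library than many shared ones. Besides 2 UBA1 sites, replicate 1 alone had 8.13 at 1783 bp from CDK5R2, 7.72 inside POLR1B, a subunit gene of RNA polymerase I, and 7.04 inside C14orf93. Replicate 2 alone had 5.84 at LAP3, an aminopeptidase gene, and at CLMN, both with BRG1, then 5.68 near ASPH, 5.62 in GUCY1A2 and 5.58 in TRDN.

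Most sites lay inside or close to coding genes without touching their ends. Of the 178 sites, 84, or 47.2%, lay inside a coding gene, 40 were farther than 50 kb from any, and 13, or 7.3%, lay within 1 kb of a gene's end. The figures for 1527 sites of 1 replicate were 50.8% inside and 8.06% within 1 kb of an end. The share of the genome that lies in or near coding genes was not computed, so these figures do not set the sites apart. Taking the nearest coding gene within 50 kb, 138 of the 178 sites named 125 genes. More than 1 such site was assigned to 10 genes. Beside ZMAT2 and PDIA4, which neighbour the vault and Y RNA genes, and UBA1, these were MAML2, MEF2C, MYO16, PDE4D, SDK1, STAC and POM121L2, named after their values were seen. A POM121L2 site, at chr6:27293929-27294207, lay within 1 kb of the tRNA pseudogene TRS-ACT1-1 and 1226 bp from the tRNA gene TRQ-CTG5-1. MAML2, a Notch coactivator, and MEF2C each had 2 sites, all with BRG1.

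A minority of antioxidant and detoxification genes had an NRF2 site within 50 kb, in a share above that of all coding genes. Of the 121 found in RefSeq out of 123 listed, 4 had a site of both replicates within 50 kb of their span, or 3.31%, where 1.11% of all 19974 coding genes did. With a site of either kind the count was 17, or 14%, where 9.35% of coding genes did. These shares are a description, with no test; gene length was not matched. Within 10 kb, 2 genes had a site of both replicates and 11 had any. The share of all coding genes was not computed at 10 kb, so whether the listed genes exceed it there is not known.

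The 4 genes were AKR1B15, ABCC2, UGT1A6 and GPX2. AKR1B15, an aldo-keto reductase, lay 14132 bp from a site at chr7:134594001-134594260 with folds of 6.54 and 4.09, and 40063 bp from a second at chr7:134619932-134620363 with 5.55 and 5.26. Both had BRG1 and H3K27ac, and the second, which is closer to BPGM, also had H3K4me1. BRG1 folds were 3.04 and 3.7 at the first and 5.47 and 6.03 at the second. ABCC2, an exporter of glutathione and glucuronide conjugates, lay 2441 bp from a site with 3.93 and 3.41 that had BRG1 and H3K27ac. The UGT1A6 site, with 2.85 and 4.15, no mark and no BRG1, lies inside several overlapping genes of the UGT1A locus, so its gene is uncertain. GPX2, a glutathione peroxidase, lay 44004 bp from a site with 4.8 and 4.98 that falls at the FNTB promoter, printed above, with H3K27ac and H3K4me3.

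The other 13 genes had sites of replicate 1 alone. In glutathione metabolism, SLC7A11, which imports cystine, held a site with a fold of 3.92 and BRG1. GCLM, the modifier subunit of the enzyme that starts glutathione synthesis, lay 6009 bp from a site with 3.03 that falls nearer to DNTTIP2, and GPX3 lay 43718 bp from one with 3.54. In haem and iron metabolism, FECH, which inserts iron into haem, had a site with 4.43 at 89 bp from the gene, and SLC48A1, a haem transporter, held one with 3.95. TKT, of the pentose phosphate pathway, and CAT, catalase, had 3.89 and 4.31 at 13954 and 11483 bp. AKR1B10 shared with AKR1B15 a site with 3.39. GSTA3 and GSTA4, glutathione transferases, had 4.12 and, at the GSTA4 start, 3.59. Among exporters, ABCC1, ABCC4 and ABCC5 held sites with 3.63, 3.99 and 3.68, and the ABCC1 site, chr16:15988288-15988693, had SMARCC1, H3K27ac and H3K4me1.

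Genes best known as NRF2 targets had sites of 1 replicate at most. Of 22 genes looked up for their place in this pathway, 4 had any site within 50 kb, or 18.2%, namely GCLM, SLC7A11, ABCC1 and AKR1B10, and 0 had one of both replicates. Over all coding genes these shares were 9.35% and 1.11%, so with 22 genes a count of 0 does not set them apart. NQO1, a quinone reductase, was 529481 bp from its nearest site. HMOX1, which breaks down haem, was 1799412 bp away, GCLC 66426 bp, TXNRD1 1746135 bp and SRXN1 4994171 bp. H3K4me3 lay within 1 kb of an end of 19 of the 22, and H3K27ac of 16. H3K4me3 and H3K27ac both did so at NQO1, HMOX1, GCLC and SRXN1, and neither at TXNRD1, AKR1C1 or AKR1B10. The shares of all coding genes with these marks at an end were not computed, so these counts do not set the 22 genes apart. With depth unknown, a missing peak does not show that NRF2 was absent.

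None of the genes of the other lists had a site of both replicates within 50 kb. Over all coding genes that share was 1.11%, so with lists of 15 to 26 genes a count of 0 does not set them apart. Of 17 NRF2 regulators 0 had a site of both replicates, and TRIM16 had 1 of replicate 1. Of 15 AP-1 factors, JUN lay 16355 bp from a site of replicate 1 with 3.8, BRG1, H3K27ac and H3K4me1. Of 26 BAF and PBAF subunits, ACTL6A, ARID1B and PBRM1 had a site of 1 replicate. Of 16 genes of the YAP and TEAD pathway, AJUBA, LATS1, TEAD1 and WWTR1 did. Against the 9.35% of coding genes with any site, these counts come to 5.88%, 6.67%, 11.5% and 25%. The YAP and TEAD share, from 4 of 16 genes, was above the 14% of antioxidant and detoxification genes, so an excess was not particular to those.

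Chromosomes differed in how often sites were found again. On chromosome 7, 26 of 122 sites were found in both replicates, or 21.3% (14.4 to 29.6), against 152 of 1583, or 9.6% (8.2 to 11.2), elsewhere. Polymerase III RNA genes account for 4 of the 26 and 5 of the 152, and 15 of the 26 had BRG1. Chromosome 19 held 12 sites, or 0.704%, though it has 4.15% of H3K27ac regions and 0.588% of BRG1 sites. Chromosome 17 held 38 sites, 0 of them found in both replicates. Chromosomes 7, 17 and 19 were singled out after their values were seen, and no test was run on them.

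Stricter thresholds left few sites and changed the comparisons between both and 1 replicate. At a −log10 p of at least 5 in each library, 39 sites were found in both replicates: BRG1 was at 18 of them against 124 of 323 in 1 replicate, a difference of 7.76 points with an adjusted p of 0.469 by Fisher's exact test, and H3K27ac differed by 11.6 points with an adjusted p of 0.241. UBA1 sites and those near polymerase III genes or tRNA pseudogenes were then left out as well. BRG1 was at 18 of 30 against 124 of 308, or 60% and 40.3%, and H3K27ac at 50% and 30.2%. These differences of 19.7 and 19.8 points both had an adjusted p of 0.0855 by Fisher's exact test. At a −log10 q of at least 1.3, 22 sites remained, of which 6 lay near polymerase III genes and 2 inside UBA1. BRG1 was then at 7 of 22 against 71 of 149, a difference of -15.8 points with an adjusted p of 0.445, and H3K27ac at 6 of 22 against 54 of 149, -8.97 points with an adjusted p of 0.568. Without the polymerase III and UBA1 sites, BRG1 was at 7 of 14 sites of both replicates and 71 of 137 of 1 replicate, or 50% and 51.8%. The differences in BRG1 and H3K27ac between sites of both and of 1 replicate thus passed the test for the lists as deposited and missed it at each of these thresholds. Among these 14 were the sites nearest to PROS1, TM4SF4, FAM174A, H2BC13, SCAND3, ADGRB3, BPGM, ZFAND1, ZFPM2, PAPSS2, LAMA3, MED29 and ACTRT1. Against sites near tRNA genes the contrast in BRG1, H3K4me1, H3K27ac and H3K4me3 kept its direction and its side of the threshold at both settings.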

How the data were processed

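Peak lists of 12 CUT&RUN libraries were used, 1 per library. Per the submitters' processing notes, Bowtie2 2.4.1, SAMtools 1.9, Picard 2.23.9, MACS2 2.2.7.1 and GRCh38 were used, with no role or setting given. The fold enrichment of each peak (a ratio), its −log10 p and its −log10 q are the authors' deposited values. The authors' deposited score was read and not used. What the folds are relative to, IgG or the library's own background, is not given in the sources used here.

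From these, merged sites, overlaps, exact (Clopper-Pearson) intervals and Fisher's exact tests were computed with Python 3.11.15, NumPy 2.4.6, SciPy 1.17.1 and pandas 2.3.3; intervals cover counting error only. The overlap routines and both exact tests were tested on simulated data. Reproducible regions needed a peak from each replicate. Genes came from RefSeq GRCh38.p14, which gave spans without strand; 195 of 198 listed genes were found. Promoter windows carried strand.

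Named sites were the 10 of best mean rank, the 5 best inside H3K27ac and inside H3K4me3, those with SMARCC1, the 5 highest of each library alone, listed genes with a site, 22 genes looked up always, other polymerase III genes, and the sites at the 1 kb limit. Some genes that this rule names are not reported here. Members, lists and rules were chosen with earlier results of these data known. Stricter thresholds, summits, other distances, strata of fold, each library left out and a replicate block were tried as alternatives; leaving out UBA1 or polymerase III sites, alone or with stricter thresholds, was added after seeing the data.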

Additional observations from a re-analysis of the deposited data

How the results depend on the processing

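Of 60 alternative values for the comparison with sites near tRNA genes, 58 kept their direction and side of the threshold. The exceptions were SMARCC1 at −log10 q of at least 1.3 (4.55 points, adjusted p of 0.15) and without NRF2 replicate 1; with each library left out that difference ran from 1.62 to 8.99 points. Of 65 values for the comparison of both with 1 replicate, 46 did. H3K4me1 was weaker at summits (6.59 points) and within strata of fold (7.14 points). At −log10 p of at least 5, with fewer sites, H3K27ac (11.6), BRG1 (7.76) and SMARCC1 (6.14) missed the threshold and H3K4me1 reversed (-6.56). At −log10 q of at least 1.3, SMARCC1 was 1.19, and H3K27ac (-8.97), H3K4me1 (-10) and BRG1 (-15.8) reversed, with adjusted p between 0.445 and 0.568. Leaving out UBA1 and polymerase III sites as well, at −log10 p of at least 5 H3K27ac (19.8), BRG1 (19.7) and SMARCC1 (8.38) missed the threshold and H3K4me1 reversed (-0.433); at −log10 q of at least 1.3 SMARCC1 was 3.49, and H3K27ac (-3.7), H3K4me1 (-2.09) and BRG1 (-1.82) reversed. These settings leave fewer sites; other causes were not tested.

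Neither NRF2 library met the same-numbered library of every other target more often than the other-numbered one. Both met BRG1 replicate 2, with 6610 peaks, more often than BRG1 replicate 1, with 3213. Such overlaps can follow peak number, so they cannot show whether the numbers pair the libraries. With a replicate block, H3K4me3 passed the threshold (3.97 points, adjusted p of 0.02), and no other call changed.

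Shares among sites of both replicates moved under several settings. H3K4me1 and H3K4me3 were both 25.6% at −log10 p of at least 5. H3K27ac, H3K4me1, H3K4me3 and BRG1 were 27.3%, 18.2%, 36.4% and 31.8% at −log10 q of at least 1.3. With peaks of either replicate of the other target, H3K27ac, H3K4me1, BRG1 and SMARCC1 were 56.7%, 46.1%, 75.8% and 12.4%. With each library left out, the ranges were 19.5% to 51.1% for H3K27ac, 27.6% to 41% for H3K4me1, 5.76% to 11.2% for H3K4me3, 28.7% to 69.1% for BRG1 and 1.62% to 8.99% for SMARCC1. Sites found in both replicates numbered 39 and 22 at these thresholds on −log10 p and q, and genes assigned to them 21 and 11. Antioxidant and detoxification genes with any site numbered 11 within 10 kb, where the share of all coding genes was not computed. Leaving out UBA1 sites, or sites near other polymerase III genes and tRNA pseudogenes, changed no call for the lists as deposited.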
